A study of Mus musculus with 18 samples.

Results

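The miR-30 family is described here by 7 of the 1251 mature microRNAs in the mouse small RNA table. The members were taken by name. They are the 5p arms mmu-miR-30a-5p, mmu-miR-30b-5p, mmu-miR-30c-5p, mmu-miR-30d-5p and mmu-miR-30e-5p, together with the 3p arms mmu-miR-30a-3p and mmu-miR-30e-3p. All 7 were above the lowest value of the table in each of the 18 libraries, and all 7 were among the 293 microRNAs tested.

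The libraries came from 6 female SKH1-E Hairless mice, numbered 2, 3, 7, 8, 9 and 10. These animals have no functional Hairless gene, and all of them received chronic low-dose UV from solar simulators from young adulthood, so the controls were exposed as well and no unexposed skin was analysed here. Each mouse gave chronically UV-exposed skin (CHR), a papilloma (PAP) and an invasive cutaneous squamous cell carcinoma (cuSCC), with n = 6 for each type. Values are log2 ppm, the abundance of a microRNA relative to the usable reads of its library, after quantile normalization, which gives every library nearly the same set of values, and a microRNA that was not detected stands at 3.32. The tissue was bulk, so fewer cells of a type and less RNA per cell cannot be told apart.

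A microRNA hairpin carries a mature strand on each of its arms, called 5p and 3p. The strand that enters an Argonaute protein pairs through its seed with target messenger RNAs and lowers their output, while the partner strand is mostly degraded. The miR-30 5p arms share a seed and are abundant in many epithelial tissues, where they are known for restraining genes of autophagy and of epithelial-mesenchymal transition.

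Of the 7 members, 5 were matched in the RefSeq microRNA table of build GRCm38.p6. They are shown because the members that moved differ from their nearest relatives by 1 base each. Capitals mark the seed, bases 2 to 8.
mmu-miR-30a-5p: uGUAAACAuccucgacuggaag
mmu-miR-30e-5p: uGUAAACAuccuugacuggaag
mmu-miR-30c-5p: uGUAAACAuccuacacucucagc
mmu-miR-30a-3p: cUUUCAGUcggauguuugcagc
mmu-miR-30e-3p: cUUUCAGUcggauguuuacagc

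The 3 5p arms shown have the seed GUAAACA and the same first 12 bases. Counted from the 5′ end, mmu-miR-30a-5p and mmu-miR-30e-5p matched at 21 of 22 positions and differed by C13U. mmu-miR-30c-5p differed from mmu-miR-30a-5p at 5 positions, C13A, G14C, G18C, G19U and A20C. The 3p arms have another seed, UUUCAGU, and differed from each other by G18A. In the RefSeq table, GUAAACA was the seed of 4 of 1679 mature microRNA names, those of miR-30a, miR-30c, miR-30e and miR-384-5p. UUUCAGU was the seed of 2 names, the 3p arms shown. The names searched did not include mmu-miR-30b-5p and mmu-miR-30d-5p.

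The hairpins lie in pairs on the genome. Mir30a (chr1:23272269-23272339, plus strand, GRCm38) overlaps no other annotated gene, and Mir30c-2 begins 19361 bases further on, inside an exon of the long noncoding RNA gene Gm27028. Mir30e (chr4:120772606-120772697, minus strand) and Mir30c-1 lie 2983 bases apart inside introns of Nfyc, which is transcribed from the same strand and encodes a subunit of the NF-Y transcription factor. Mir30f is annotated on the opposite strand at the position of Mir30e. The precursors of the members that moved are given with both mature arms in capitals, since the strands of each are compared further on.
Mir30a hairpin: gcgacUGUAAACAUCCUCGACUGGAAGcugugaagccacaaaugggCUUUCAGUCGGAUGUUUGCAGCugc
Mir30e hairpin: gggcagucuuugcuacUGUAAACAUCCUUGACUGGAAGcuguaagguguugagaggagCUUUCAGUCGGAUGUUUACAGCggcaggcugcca

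The mature mmu-miR-30c-5p is identical from both of its hairpins, so its value cannot be assigned to either locus.

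The family was led by mmu-miR-30d-5p in all 18 libraries. In CHR it ran from 15.44 to 16.37 with a median of 16.15, and it ranked between 8 and 14 among all entries of a library. The next level was held by mmu-miR-30c-5p (13.05 ± 0.43 in CHR, mean ± SD, n = 6) and mmu-miR-30a-5p (12.97 ± 0.46), which stood in this order in only 3 of 6 CHR libraries. Near 9.35 ± 0.48 followed mmu-miR-30e-5p, below mmu-miR-30a-5p by 3.63 ± 0.58 on average and in 6 of 6 libraries. The last 3 members, mmu-miR-30a-3p (8.91 ± 0.22), mmu-miR-30b-5p (8.54 ± 0.51) and mmu-miR-30e-3p (8.35 ± 0.46), did not differ from their neighbours in this order beyond the spread between libraries. The same was true of mmu-miR-30e-5p and mmu-miR-30a-3p in CHR, where their order held in 5 of 6 libraries.

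Taken out of the log2, mmu-miR-30d-5p made up 78.5 ± 1.94% of the summed 5p members in CHR, 74.7 ± 3.92% in PAP and 70.2 ± 9.59% in cuSCC. In the carcinomas its share ranged from 62.6% to 86.6%, a spread that covers both other means. The share of mmu-miR-30e-5p was 0.819 ± 0.269% in CHR, 1.61 ± 0.530% in PAP and 2.58 ± 1.19% in cuSCC. On this scale mmu-miR-30e-5p was a minor part of the summed 5p members in every type.

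**Figure D1:**
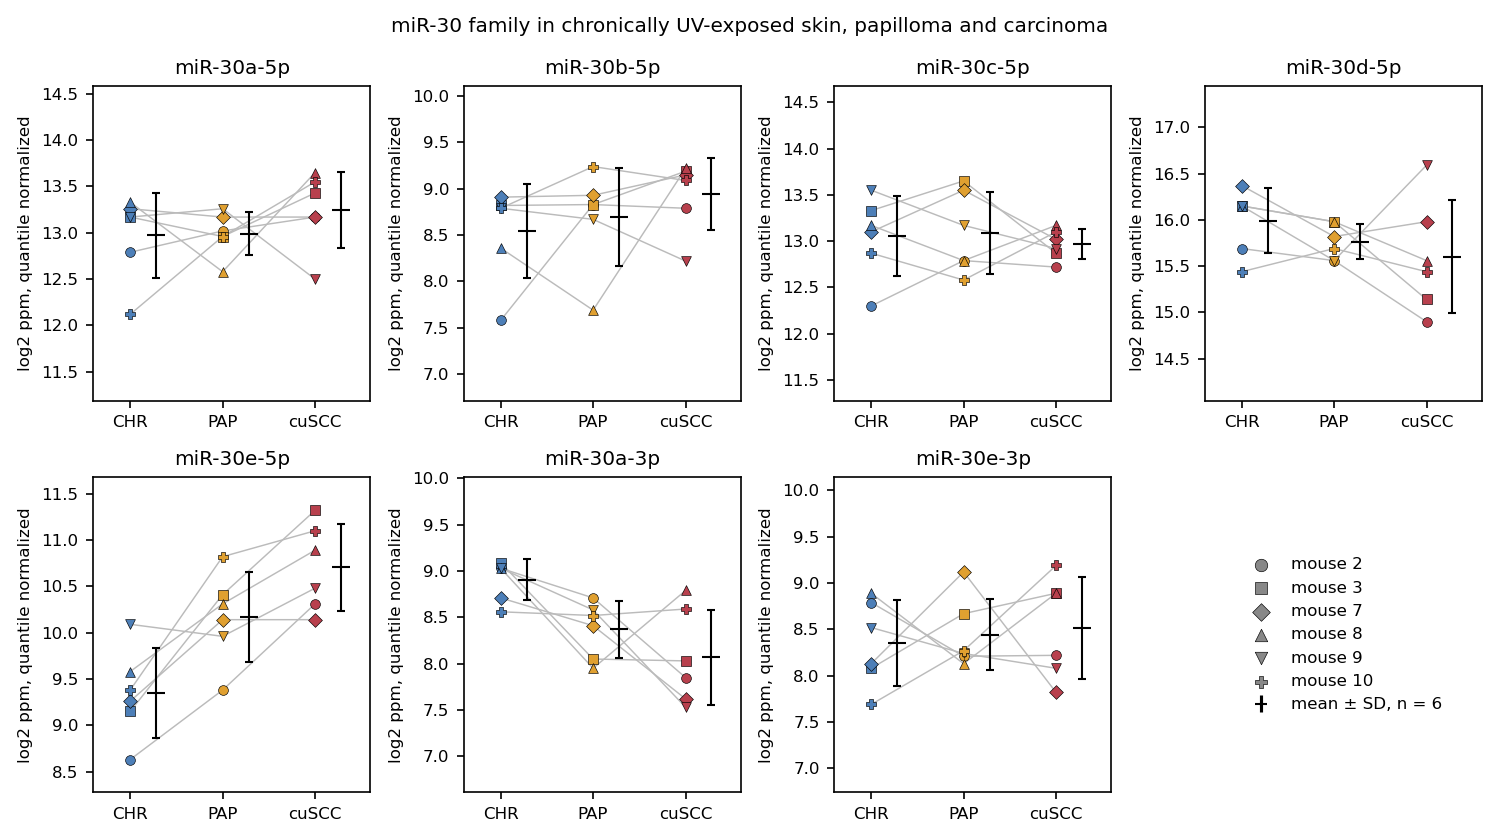
Each panel plots 1 member, with the log2 ppm value (quantile normalized) on the vertical axis and the sample type on the horizontal axis. Symbols mark the 6 mice, thin lines join samples of the same mouse and bars give the mean ± SD (n = 6). All panels span the same number of log2 units. The cuSCC values of miR-30e-5p, 10.14 to 11.32, lie above all CHR values, 8.63 to 10.09.

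The comparison of cuSCC with CHR asks which microRNAs differ between the invasive tumour and the exposed skin around it. Here mmu-miR-30e-5p rose and mmu-miR-30a-3p fell, and the other 5 members did not pass the test. In CHR, mmu-miR-30e-5p stood at 8.63 to 10.09 with a median of 9.32. In cuSCC it stood at 10.14 to 11.32 with a median of 10.68. The groups did not overlap, the lowest carcinoma being that of mouse 7 and the highest skin value that of mouse 9. The log2 fold change was 1.36 (SE 0.31, 95% interval 0.70 to 2.03), or 2.57-fold, with an adjusted p of 0.00387 (limma, Benjamini-Hochberg over 293 microRNAs). It was higher in cuSCC in 6 of 6 mice, by 0.39 in mouse 9 and by up to 2.17 in mouse 3.

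The 3p strand of the miR-30a hairpin went the other way. In CHR, mmu-miR-30a-3p ran from 8.56 to 9.09 with a median of 9.03. In cuSCC it ran from 7.53 to 8.79 with a median of 7.94. The carcinomas of mice 2, 3, 7 and 9 lay below every CHR value, while those of mice 8 and 10 lay within the CHR range. The log2 fold change was -0.84 (SE 0.28, 95% interval -1.45 to -0.23), with an adjusted p of 0.0296 (limma), and 5 of 6 mice were lower in cuSCC. With mouse as a replicate block the adjusted p was 0.0675. Without mouse 2, 3, 7 or 9 it was between 0.0707 and 0.0947, so the call rests on each of these mice.

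These 2 calls among 7 members compare with 42.3% of all 293 microRNAs at the same threshold. At an unadjusted p under 0.05 the count was again 2 of 7, against 51.5% of all tested. Groups that did not overlap were found for 1 of 7 members and for 20.5% of all tested. The median log2 fold change was 0.17 over the 7 members and 0.11 over all tested microRNAs. By absolute fold change, mmu-miR-30e-5p ranked 84 and mmu-miR-30a-3p 157 of 293.

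The intervals of the other 5 members included 0 in cuSCC against CHR. For mmu-miR-30b-5p the log2 fold change was 0.40 (95% interval -0.25 to 1.05), and for mmu-miR-30a-5p it was 0.27 (-0.36 to 0.91). For mmu-miR-30c-5p it was -0.09 (-0.65 to 0.48). The leading member mmu-miR-30d-5p had -0.39 (-1.07 to 0.29), with carcinomas from 14.90 in mouse 2 to 16.59 in mouse 9. For mmu-miR-30e-3p, from the same hairpin as the member that rose, it was 0.17 (-0.52 to 0.85). The adjusted p of these 5 ran from 0.296 to 0.815 (limma).

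**Figure D2:**
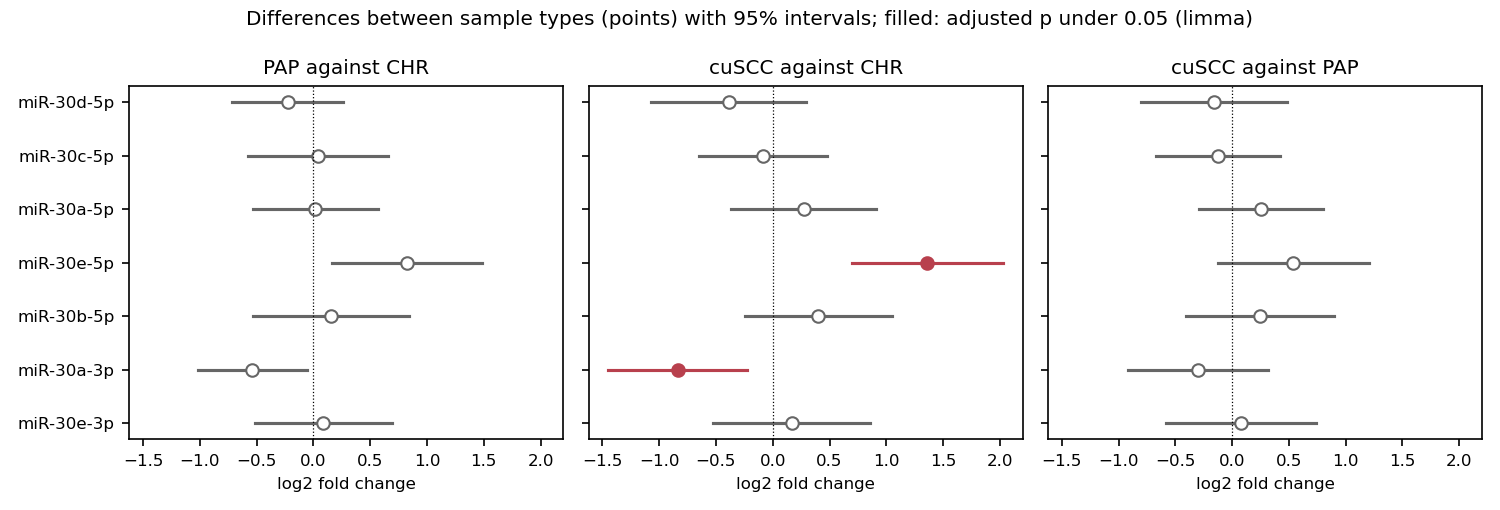
For each comparison, points give the log2 fold change of the 7 members and lines its 95% interval, with filled points where the adjusted p (limma) was under 0.05. The filled points are miR-30e-5p at 1.36 and miR-30a-3p at -0.84, both in cuSCC against CHR.

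Papillomas, which the study calls precancerous, were compared with exposed skin to ask what separates them from their surroundings. No member passed the adjusted threshold with limma, against 32.4% of all tested microRNAs. At an unadjusted p under 0.05 the count was 2 of 7, against 42.3%. After adjustment the exact permutation test passed 1 member, against 30.7% of all tested, and the equal-variance test 2, against 29.7%.

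Those close to the threshold were again mmu-miR-30e-5p and mmu-miR-30a-3p. In PAP, mmu-miR-30e-5p ran from 9.38 to 10.82 with a median of 10.23. Only the papilloma of mouse 9 was below the skin of the same mouse, and the groups overlapped. The log2 fold change was 0.82 (SE 0.30, 95% interval 0.17 to 1.48), with an adjusted p of 0.0546 (limma). Without mouse 9 it was 1.01, with an adjusted p of 0.0383.

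In PAP, mmu-miR-30a-3p ran from 7.95 to 8.71 with a median of 8.47. All 6 mice were lower in PAP than in CHR, by 0.04 in mouse 10 and by 1.09 in mouse 8, and the groups overlapped. The log2 fold change was -0.54 (SE 0.22, 95% interval -1.02 to -0.06), with an adjusted p of 0.0804 (limma) and of 0.0440 with the exact permutation test per microRNA.

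The remaining 5 members had log2 fold changes from -0.23 for mmu-miR-30d-5p to 0.16 for mmu-miR-30b-5p in PAP against CHR. Their intervals reached at most 0.85 on the high side and -0.72 on the low side. The median of all tested microRNAs was -0.23 in this comparison, and that of the 7 members was 0.04. Centring each library on its tested microRNAs moved every log2 fold change by 0.26 and turned that of mmu-miR-30d-5p to 0.03. With this centring mmu-miR-30e-5p passed in PAP at 1.08 (adjusted p of 0.0363, limma). The library mean used for centring includes entries at the lowest value, and their part in the shift was not tested.

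Between cuSCC and PAP, which asks what separates invasive carcinoma from papilloma, no member passed with limma, against 11.6% of all tested. None had an unadjusted p under 0.05 either, against 28.3% of all tested, and the exact permutation and equal-variance tests also passed 0 of 7. Those tests passed 0% and 2.05% of all tested microRNAs after adjustment, so their counts say nothing about the members. Here mmu-miR-30e-5p had a log2 fold change of 0.54 (95% interval -0.13 to 1.20) and was higher in cuSCC in 5 of 6 mice, mouse 7 being equal. For mmu-miR-30a-3p it was -0.30 (-0.92 to 0.32), with 4 of 6 mice lower. The other 5 ran from -0.16 for mmu-miR-30d-5p to 0.25 for mmu-miR-30a-5p. Centring moved every value by -0.28 and turned mmu-miR-30a-5p, mmu-miR-30b-5p and mmu-miR-30e-3p below 0.

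The PAP and cuSCC comparisons with CHR share the same 6 skin libraries. Across both, mmu-miR-30e-5p had 0.82 in PAP and 1.36 in cuSCC, and mmu-miR-30a-3p had -0.54 and -0.84. For these comparisons with CHR, the plot of fold change against p places both members away from the other 5.

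**Figure D3:**
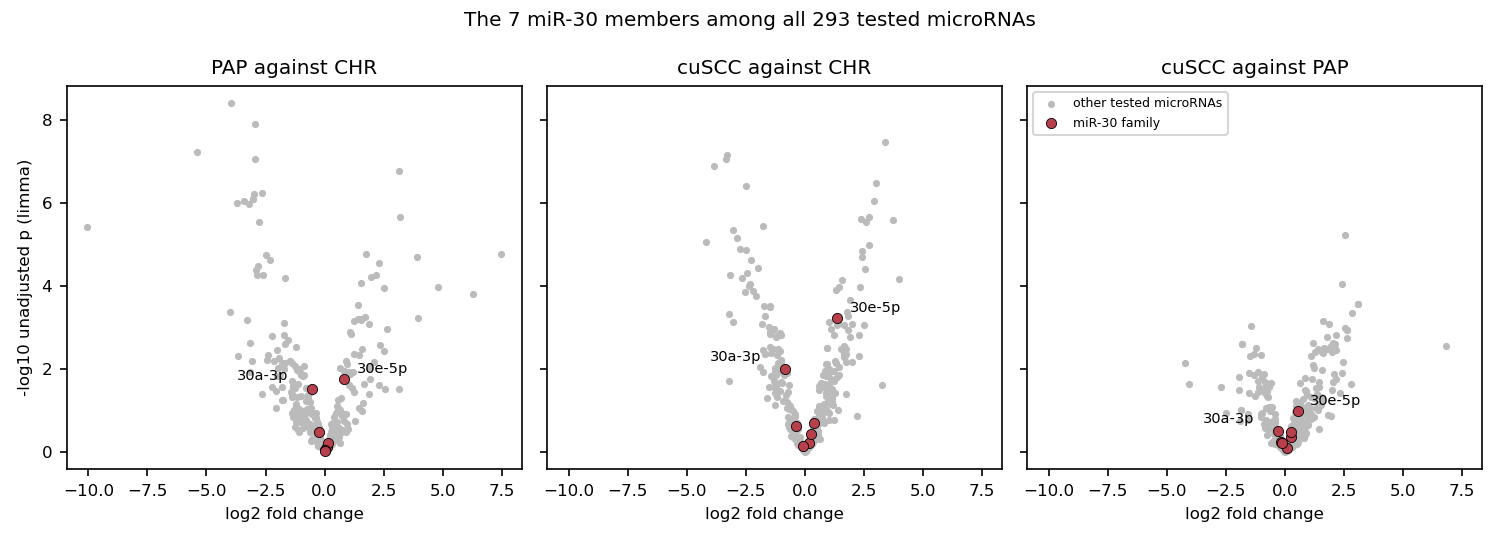
For each comparison, the log2 fold change is on the horizontal axis and -log10 of the unadjusted limma p on the vertical axis, with the 7 members in red and the other tested microRNAs in grey. Of the 7 members, miR-30e-5p and miR-30a-3p are the highest in each comparison.

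Separate tests of the strands of a hairpin do not show that the strands moved apart, so the log2 difference between them was taken within each library and compared between types. Exact two-sided permutation tests were used, adjusted over 9 such differences. The pairs were chosen with earlier results of these data known, which the adjustment does not cover. Strand differences of hairpins outside the family were not computed, so no background share can be set beside these. For the miR-30a hairpin, the 5p strand exceeded the 3p strand by 4.07 ± 0.36 in CHR, 4.62 ± 0.22 in PAP and 5.18 ± 0.28 in cuSCC (n = 6 each). As ratios these means are 16.7, 24.6 and 36.1. All 6 carcinomas, from 4.86 to 5.55, lay above all 6 skin samples, from 3.56 to 4.55.

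The step in this miR-30a strand difference was 0.56 from CHR to PAP (SE 0.17, exact permutation test, adjusted p of 0.0195). From PAP to cuSCC it was 0.55 (SE 0.15, exact permutation test, adjusted p of 0.0130), and from CHR to cuSCC 1.11 (SE 0.19, exact permutation test, adjusted p of 0.00974). Each step was positive in 6 of 6 mice. The step from CHR to PAP lost its call without mouse 3 (0.50, exact permutation test, adjusted p of 0.0714) or mouse 8 (0.60, exact permutation test, adjusted p of 0.0536). The other steps passed with any mouse left out.

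For the miR-30e hairpin, the 5p strand exceeded the 3p strand by 0.996 ± 0.673 in CHR, 1.73 ± 0.58 in PAP and 2.19 ± 0.22 in cuSCC. As ratios these means are 1.99, 3.33 and 4.57. In the skin of mouse 2 the 3p strand was the higher, with a difference of -0.16. The carcinomas ran from 1.91 to 2.43 and lay above all skin samples, whose highest was 1.69.

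The change of the miR-30e strand difference from CHR to cuSCC was 1.20 (SE 0.29, exact permutation test, adjusted p of 0.00974), positive in 6 of 6 mice. From CHR to PAP it was 0.74 (exact permutation test, adjusted p of 0.0751, 5 of 6 mice). From PAP to cuSCC it was 0.46 (exact permutation test, adjusted p of 0.119, 4 of 6 mice). Without mouse 10 the last of these was 0.68, with an adjusted p of 0.0357 in the exact permutation test.

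In both hairpins the 5p strand gained on the 3p strand between CHR and cuSCC. In miR-30a the difference came with a lower 3p strand (-0.84) and a 5p strand at 0.27, and in miR-30e with a higher 5p strand (1.36) and a 3p strand at 0.17. Mouse as a replicate block, through an exact sign-flip test over the 6 mice, gave an adjusted p of 0.0563 for all 5 differences that passed above or in the next paragraph. Their unadjusted p of 0.0312 is the smallest that 6 pairs allow.

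**Figure D4:**
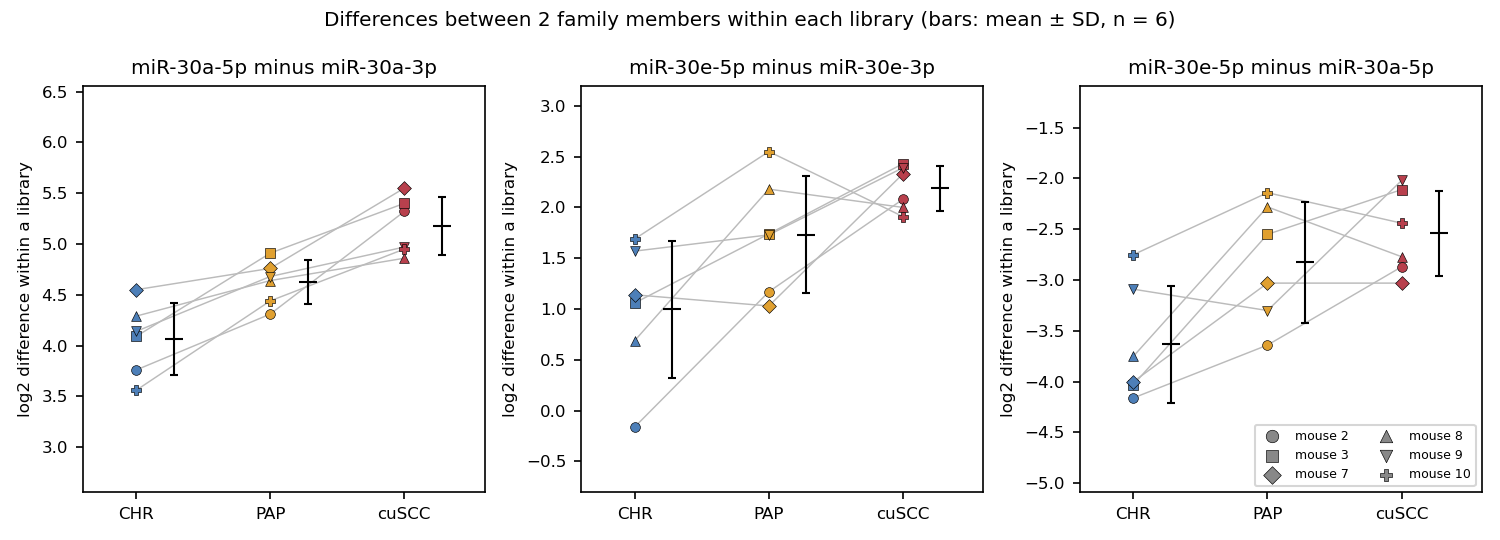
Each panel plots the log2 difference between 2 members of the same library against the sample type, with symbols for the 6 mice, lines joining samples of a mouse and bars for the mean ± SD (n = 6). In the first and second panels all 6 cuSCC values lie above all 6 CHR values, and in the third panel they overlap.

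The near-identical 5p arms of miR-30a and miR-30e came closer in level. Within a library, the difference mmu-miR-30e-5p minus mmu-miR-30a-5p was -3.63 ± 0.58 in CHR, -2.82 ± 0.59 in PAP and -2.54 ± 0.42 in cuSCC. The gap narrowed from CHR to cuSCC by 1.09 (SE 0.29, exact permutation test, adjusted p of 0.0195), in 6 of 6 mice. From CHR to PAP the change was 0.81 (exact permutation test, adjusted p of 0.0682), and from PAP to cuSCC it was 0.28 (exact permutation test, adjusted p of 0.366). The change from CHR to cuSCC lost its call without mouse 3 (0.92, exact permutation test, adjusted p of 0.0714) or mouse 8 (1.11, exact permutation test, adjusted p of 0.0571), and the change from CHR to PAP passed without mouse 9 (1.01, exact permutation test, adjusted p of 0.0476) or mouse 10 (0.85, exact permutation test, adjusted p of 0.0408).

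How reads that match either of these arms were divided between them is not given in the sources used here, and its part in the difference was not tested. With the linear values of both 5p arms added, the sum stood at 13.09 ± 0.43 in CHR, 13.19 ± 0.19 in PAP and 13.48 ± 0.39 in cuSCC. The sum of both 3p arms stood at 9.66 ± 0.30, 9.42 ± 0.24 and 9.32 ± 0.52. On this summed scale cuSCC differed from CHR by 0.39 for the 5p strands and by -0.35 for the 3p strands, which are given without a test.

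The other strands of the miR-30 hairpins were low. For mmu-miR-30c-2-3p the means were 7.24 ± 0.67 in CHR, 6.84 ± 0.60 in PAP and 6.60 ± 0.37 in cuSCC, with a log2 fold change of -0.63 from CHR to cuSCC (limma, adjusted p of 0.140). For mmu-miR-30c-1-3p they were 6.36 ± 0.51, 5.72 ± 1.30 and 6.40 ± 0.90, the papilloma of mouse 10 standing at the lowest value of the table. These strands share the seed UGGGAGA, and neither passed in any comparison. For mmu-miR-30b-3p, which also passed in none, the means lay between 4.11 and 4.40, and only 2 of 6 papillomas were above the lowest value. The level of mmu-miR-30d-3p was above the lowest value in 3 carcinomas, at most 4.27, and in no other library. Outside the family, miR-384-5p has the miR-30 seed and stood at the lowest value in all 18 libraries.

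Levels of the members were loosely related. Over the 18 libraries, Pearson's r between members ran from -0.49 (mmu-miR-30a-3p and mmu-miR-30e-5p) to 0.60 (mmu-miR-30a-5p and mmu-miR-30e-3p). The points share the same mice and the same set of values in each library. For the strands of miR-30a, r was 0.26 over all libraries and 0.70 after the mean of each sample type was removed. For the strands of miR-30e these values were 0.35 and 0.38. The strands of miR-30a stood high or low together among libraries of a type, while their means parted between types.

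The microRNAs outside the family whose levels were most like those of mmu-miR-30e-5p were miR-21a-5p (r = 0.86 over 18 libraries), miR-20a-5p (0.85) and miR-16-5p (0.83). miR-21 is a widely raised tumour microRNA, and miR-20a comes from the same cluster as miR-17. With the sample type means removed, these values were 0.65, 0.60 and 0.62. For mmu-miR-30a-5p the closest were let-7i-5p (0.62), let-7f-5p (0.60) and miR-103-3p (0.58). For mmu-miR-30a-3p they were miR-204-5p (0.64), miR-1843b-3p (0.64) and miR-378c (0.63), which dropped to 0.33, -0.14 and 0.19 with the type means removed.

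MicroRNAs taken as markers of other cell types differed between the sample types. The skeletal muscle microRNAs, 4 of 4 matched, had log2 sums of 15.44 to 15.98 in the CHR libraries, from 5.32 to 12.45 in PAP and from 6.04 to 14.24 in cuSCC, with 3 of 3 tested lower in PAP than in CHR and 1 of 3 lower in cuSCC. In PAP 3 of the 4 were at the lowest value in all 6 libraries. Leukocyte microRNAs, 4 of 4 matched, had sums of 12.13 to 13.11 in the CHR libraries, from 9.004 to 11.19 in PAP and from 10.79 to 12.26 in cuSCC, with 1 of 3 tested lower in PAP and 1 higher and 1 lower in cuSCC. The endothelial pair, both arms of miR-126, had sums of 7.84 to 9.35 in the CHR libraries, from 7.61 to 9.004 in PAP and from 9.26 to 11.17 in cuSCC, and 2 of 2 were higher in cuSCC than in CHR.

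Markers of the epithelium, 7 of 7 matched, stood high throughout, with sums of 17.50 to 18.51 in the CHR libraries, from 17.77 to 18.55 in PAP and from 17.50 to 18.54 in cuSCC. Of these, 4 of 7 rose in PAP and 3 of 7 in cuSCC against CHR. The 4 fibroblast and smooth muscle microRNAs had sums of 14.26 to 15.01 in the CHR libraries, from 11.01 to 13.93 in PAP and from 12.49 to 15.40 in cuSCC, with 3 of 4 lower in PAP and 1 of 4 lower in cuSCC. The 4 erythroid microRNAs, 1 of them at the lowest value in all libraries, had sums of 16.69 to 17.84 in the CHR libraries, from 16.70 to 18.24 in PAP and from 14.87 to 17.87 in cuSCC, and 1 of 2 tested rose and 1 of 2 fell in cuSCC against CHR. Against PAP, cuSCC was higher in 3 of 3 tested skeletal muscle and 2 of 2 endothelial microRNAs. It was also higher in 2 of 4 fibroblast and smooth muscle and 1 of 3 leukocyte microRNAs. There 1 of 7 epithelial and 1 of 2 erythroid microRNAs were lower in cuSCC. Of all 293 tested, 14% were higher and 18.4% lower in PAP against CHR. These shares were 20.1% and 22.2% in cuSCC against CHR, and 9.22% and 2.39% in cuSCC against PAP.

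Over the 18 libraries the level of mmu-miR-30e-5p had r = 0.56 with the endothelial sum, -0.60 with the leukocyte sum, -0.48 with the skeletal muscle sum, -0.40 with the erythroid sum, -0.21 with the fibroblast and smooth muscle sum and 0.14 with the epithelial sum. For mmu-miR-30a-3p the r values in this order were -0.27, 0.27, 0.25, 0.40, -0.0070 and -0.12. These r values pool all sample types without removing the type means, and the points share the same mice. The part of cell makeup in the miR-30 differences was not tested.

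The number of detected entries per library lay between 200 and 328 for skin, 163 and 281 for papillomas and 236 and 365 for carcinomas. The 7 members lay above the highest of the lowest detected values, 6.83 in a papilloma, in every library, the lowest member value being 7.53. Sequencing depth per library is not known from the values, so their counting error cannot be estimated. The carcinoma with the fewest entries, that of mouse 10, was also left out alone. Without it, mmu-miR-30e-5p had a log2 fold change of 1.28 (limma, adjusted p of 0.00586) and mmu-miR-30a-3p of -0.94 (limma, adjusted p of 0.0151) in cuSCC against CHR.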

How the data were processed

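Small RNA was sequenced from bulk tissue in 18 libraries. Per the study's methods, adapters were removed by the authors, short and homopolymer-ended reads were dropped, the remaining reads were assigned to miRBase entries by BLAST and abundance was given in ppm of usable reads. The deposited values are log2 ppm, never below 3.32, the log2 of 10 ppm, and show quantile normalization. The genome build in the submitters' processing notes is mm10. On the linear scale a library's values add up to more than its reads, so they are not shares of reads. Depth is unknown.

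Of 1251 entries, 293 were above the lowest value in at least 6 libraries. Sample types were compared in pairs with limma 3.58.1 (R 4.3.3, two-sided, no replicate block) and Benjamini-Hochberg adjustment at 0.05. Intervals are 95%. The method was tested on simulated data. Differences within libraries were compared with exact permutation tests (numpy 2.4.6) and adjusted over 9. Samples of a number come from the same mouse. Their deviations from group means, over all 293 tested microRNAs, correlated at r = 0.03 (PAP and CHR), -0.07 (cuSCC and CHR) and 0.06 (cuSCC and PAP) on average. Single mice ran from -0.14 to 0.18, from -0.28 to 0.20 and from -0.16 to 0.40 in this order. These values do not show whether pairing matters for the miR-30 members.

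The members, lists and tests were chosen with earlier results of these data known. Named were all members, the other miR-30 strands, miR-384-5p and, for miR-30e-5p, miR-30a-5p and miR-30a-3p, the 3 microRNAs with the highest r. Marker lists covered skeletal muscle, leukocytes, endothelium, epithelium, erythroid cells, and fibroblasts with smooth muscle. Alternatives were a replicate block, a fit on all 3 types, other filters, centring, other lowest values, other tests and leaving out each mouse. Leaving out the carcinoma of mouse 10 alone and summing near-identical arms were added after seeing the data. Sequences come from RefSeq and overlaps from the GENCODE annotation of the same build.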

Additional observations from a re-analysis of the deposited data

Results flagged for a closer look

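In the papillomas, the value of mmu-miR-30b-5p in mouse 8 was 7.69, and the other 5 ran from 8.67 to 9.24. The gap to the nearest papilloma was 0.63 of the whole range, above Dixon's 95% critical value for 6 samples. Of 30 groups of samples examined for such a gap, 1 had one, and chance gives about 1 in 20.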

How the results depend on the processing

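Under the alternatives, 293 of 329 recomputed fold changes of single members and 75 of 87 recomputed differences within libraries kept their direction and their side of the threshold. Most of these 293 had not passed before and again did not. The replicate block and changes of only the fit, filter, test or lowest value left each member's fold change as it was. In those settings only the adjusted p could move. For differences within libraries the other lowest values could change nothing, since all members lay above them. The 5 fold changes of single members that lost a call were all of miR-30a-3p in cuSCC against CHR. In cuSCC against CHR, 2 members passed under every alternative fitted except the replicate block (1) and leaving out a mouse (1 to 2). Under these settings, 25.6% to 52.4% of all tested microRNAs passed in that comparison. In cuSCC against PAP, 0 passed throughout (0 to 0 with a mouse left out), against 0% to 28.3% of all tested. Where that share was near 0, the count says nothing about the members. In PAP against CHR, where 0 passed in the limma test, the count is given beside the share of all microRNAs tested under the same setting. It was 1 in the fit on all 3 types (35.2%), 1 with microRNAs detected in all 12 libraries (42.3%), 1 with centring (31.4%), 1 with the exact permutation test (30.7%), 1 at the study's own thresholds applied to the limma p (1.5-fold, unadjusted p, 42.0%), 2 without a filter (25.4%), 2 with a lowest value of 100 ppm (34.2%), 2 with the equal-variance test (29.7%), and 0 to 1 with a mouse left out (18.8% to 27.0%). The study itself used a t-test with those thresholds. The adjustment took in 370 microRNAs without a filter, 123 with detection in all 12 libraries and 228 with a lowest value of 100 ppm. In the main fit it took in 293. The cause of the changed counts was not tested.

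The 3 samples of a mouse are paired. With this pairing as a replicate block, the strand differences of 0.56, 1.11 and 0.55 (miR-30a, in PAP against CHR, cuSCC against CHR and cuSCC against PAP), 1.20 (miR-30e, cuSCC against CHR) and 1.09 (miR-30e-5p minus miR-30a-5p, cuSCC against CHR) had an adjusted p of 0.0563, since 6 pairs cannot give an unadjusted p below 0.0312. miR-30a-3p in cuSCC against CHR had 0.0675, and the block changed no other call. With a mouse left out, the strand differences ran, in the order PAP against CHR, cuSCC against CHR and cuSCC against PAP, from 0.49 to 0.63, 1.02 to 1.22 and 0.46 to 0.62 for miR-30a and from 0.59 to 0.91, 0.98 to 1.39 and 0.29 to 0.68 for miR-30e. For miR-30e-5p minus miR-30a-5p they ran from 0.67 to 1.01, 0.92 to 1.25 and 0.08 to 0.44.

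Signs turned only in members that had not passed. Centring turned miR-30d-5p to 0.033 in PAP against CHR, and miR-30e-3p to -0.20, miR-30b-5p to -0.038 and miR-30a-5p to -0.028 in cuSCC against PAP. With a mouse left out, ranges that cross 0 in PAP against CHR were -0.062 to 0.32 (miR-30b-5p), -0.053 to 0.12 (miR-30c-5p), -0.15 to 0.17 (miR-30a-5p) and -0.094 to 0.26 (miR-30e-3p). In cuSCC against CHR they were -0.19 to 0.023 (miR-30c-5p) and -0.10 to 0.31 (miR-30e-3p), and in cuSCC against PAP -0.25 to 0.0082 (miR-30c-5p), -0.091 to 0.35 (miR-30e-3p) and -0.013 to 0.38 (miR-30b-5p). Without the carcinoma of mouse 10 alone, miR-30e-3p was -0.057 in cuSCC against PAP.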
